A study of Homo sapiens with 6 samples.

Results

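The 10 genes described here encode the coats of lipid droplets and genes around them that fatty acid signalling controls: the perilipins PLIN2, PLIN3, PLIN4 and PLIN5, the lipase PNPLA2 and its small inhibitor HILPDA, the nuclear receptors PPARA and PPARD, and the PPAR-responsive genes ANGPTL4 and PDK4. They were taken by symbol from the 23152 genes of the deposited table, and were proposed with results of these samples in view, so their own values are given as a description without p-values. All 10 symbols were present, and 9 of 10 passed the filter on low counts, the exception being PLIN4.

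The series asks which transcripts respond to RNF112, an E3 ubiquitin ligase, in bladder cancer cells. T24, an established human bladder cancer cell line, was compared between 3 samples with the vector and 3 samples overexpressing RNF112 (oeRNF112). All samples come from this single cell line, and the sources used here do not state whether the overexpression in the sequenced cells was transient or stable, nor whether the samples were separate cultures, so p-values measure only the spread between these samples. The treatment text of the labels describes a transfection of siRNA, whereas the sample labels name overexpression.

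RNF112 itself had 27, 19 and 24 counts with the vector and 29753, 36963 and 31712 when overexpressed, in the direction of the labels, and these may include reads from the construct. Total counts lay between 40029547 and 41259569, and a gene without a count may still have had up to 3, or 0.0727 to 0.0749 CPM (its counts scaled to a fixed total per sample), which covers counting error only. Of 14467 genes tested with edgeR, 2620 (18.1%) differed at an adjusted p under 0.05, 9.97% being higher and 8.14% lower in oeRNF112. Of these calls 55.0% were higher, against 75.4% when library totals replaced the TMM scaling. The median log2 fold change of all tested genes was 0.0027, with quartiles of -0.20 and 0.24. Of 6 epithelial markers, whose summed RPKM (reads scaled by gene length and total) was 1795 to 2231 in vector and 1460 to 1699 in oeRNF112, the keratins made up nearly all. KRT7 and KRT18 were called lower and EPCAM higher, at 1.37 against 2.62 RPKM, while CDH1 had at most 1 count in any sample. The 5 urothelial markers summed to 9.52 to 10.8 and 4.78 to 6.53 RPKM, a difference carried by FOXA1 (8.58 and 4.34 RPKM). GATA3 (1.02 and 1.21) and UPK1A (0.228 and 0.237) were not called, and UPK2 and UPK3A were under 10 counts throughout. Leukocyte markers summed to 4.09 to 4.68 RPKM in vector and 2.58 to 3.72 in oeRNF112. The largest of them by mean was LAPTM5, called lower (2.85 and 1.65 RPKM). All samples are of 1 cell line, so these sums are not read as numbers of leukocytes or other cell types. In bulk RNA fewer cells with a transcript and less of it per cell cannot be told apart. The part of these marker differences in the members' values was not tested.

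Lipid droplets are stores of triglyceride and sterol esters wrapped in a phospholipid monolayer, whose surface is covered by perilipins that restrain lipases. PNPLA2, known as ATGL, takes the first fatty acid off stored triglyceride, and its activity is raised by ABHD5 and held back by G0S2 and HILPDA. Fatty acids bind the PPAR receptors, which pair with RXR receptors on DNA repeats and switch on genes of fat storage and burning, PLIN2, ANGPTL4 and PDK4 among them. ANGPTL4 and HILPDA are also known targets of hypoxia signalling, and PDK4 of glucocorticoids.

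The stretch before the transcription start is shown for the 3 members with the largest differences between the groups and, for contrast, for PLIN3, the most abundant coat, which did not pass the test. The sequences are RefSeq's for GRCh38.p14, 250 bases directly upstream of the annotated start and read 5′ to 3′ on the strand of the gene. They cover chr19:8363905-8364154 on the plus strand for ANGPTL4, chr9:19127493-19127742 on the minus strand for PLIN2, chr7:95596517-95596766 on the minus strand for PDK4 and chr19:4867668-4867917 on the minus strand for PLIN3. Capitals mark matches, on either strand, to AGGTCA (the unit of the PPAR repeat), ACGTG (the core of many hypoxia elements), CCAAT, which NF-Y binds, or the TATA box motif TATAAA.
ANGPTL4: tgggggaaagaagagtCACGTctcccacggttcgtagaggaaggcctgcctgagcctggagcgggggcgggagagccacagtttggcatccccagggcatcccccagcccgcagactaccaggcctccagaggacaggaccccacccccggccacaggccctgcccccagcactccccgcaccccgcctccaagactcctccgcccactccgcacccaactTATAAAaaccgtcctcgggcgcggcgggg
PLIN2: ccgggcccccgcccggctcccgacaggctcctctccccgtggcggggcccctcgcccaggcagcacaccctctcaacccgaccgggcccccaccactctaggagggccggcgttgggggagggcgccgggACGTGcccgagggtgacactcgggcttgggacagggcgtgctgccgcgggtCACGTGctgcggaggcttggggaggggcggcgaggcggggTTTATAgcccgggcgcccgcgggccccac
PDK4: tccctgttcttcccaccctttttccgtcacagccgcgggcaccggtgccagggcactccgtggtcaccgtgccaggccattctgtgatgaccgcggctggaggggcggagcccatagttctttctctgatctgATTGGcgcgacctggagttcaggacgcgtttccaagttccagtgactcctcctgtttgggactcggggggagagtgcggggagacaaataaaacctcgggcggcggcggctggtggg
PLIN3: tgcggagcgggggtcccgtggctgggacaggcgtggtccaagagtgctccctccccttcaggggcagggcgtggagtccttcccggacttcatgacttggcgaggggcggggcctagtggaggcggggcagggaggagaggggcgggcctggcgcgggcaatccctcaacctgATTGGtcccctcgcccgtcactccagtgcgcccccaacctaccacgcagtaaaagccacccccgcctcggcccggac

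In this window both ANGPTL4 and PLIN2 held a TATAAA match that began 29 bases before the start, on the forward strand in ANGPTL4 and on the reverse strand in PLIN2. The letters TATAAA occur in 10.7% of the 35116 RefSeq promoters searched over the same length. PLIN2 held ACGTG at 120 bases before the start and again within CACGTG at 69 bases, a palindrome that matches on both strands and occurs in 6.34% of promoters. ANGPTL4 held 1 ACGTG match, on the reverse strand 234 bases before the start, and this motif occurs in 18.5% of promoters. PDK4 and PLIN3 held neither, and each had a CCAAT match on the reverse strand, 117 and 77 bases before the start, in common with 32.0% of promoters. PPARD, PLIN4, PLIN5 and 1 of the 2 PPARA windows also held CCAAT. Among the members with a sequence only PNPLA2 held AGGTCA, 239 bases before the start and on the reverse strand, against 12.1% of promoters. The full PPAR repeat, this unit again after 1 base of any kind, was found in none of them and in 0.0171% of promoters. With an exact repeat this rare, its absence from so few windows says nothing about PPAR binding. Inexact and more distant matches were not searched. GC content was 78.0% for PLIN2, 70.8% for PLIN3, 68.8% for ANGPTL4, 62.8% for PDK4 and 58.4% for PNPLA2, beside a median of 58% over all promoters. A sequence was at hand for 9 of the 10 members, HILPDA being the exception.

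On a scale that takes gene length into account, the members covered a wide range in the vector samples. PLIN3 was the most abundant at 85.7 ± 4.76 RPKM (SD, n = 3), followed by PNPLA2 (29.9 ± 3.78), PLIN2 (21.2 ± 1.32), HILPDA (19.6 ± 0.752), PPARD (7.15 ± 0.255), ANGPTL4 (4.51 ± 0.428), PPARA (2.21 ± 0.446), PDK4 (0.426 ± 0.122) and PLIN5 (0.133), with PLIN4 at 0.0029. No neighbours in this order overlapped. In oeRNF112 PLIN2 stood above PNPLA2, and ANGPTL4 stood above HILPDA and PPARD. There, the ranges of PNPLA2 and ANGPTL4 overlapped, as did those of ANGPTL4 and HILPDA, so their order is not resolved.

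Of the 9 tested members, 4 passed the adjusted p of 0.05 and all were higher in oeRNF112, where 9.97% of all tested genes were called higher. The same 4, ANGPTL4, PLIN2, PDK4 and PPARD, were those whose CPM (scaled by edgeR's TMM factors) did not overlap between the groups, with 36.8% of all tested genes not overlapping in either direction and 18.9% in this one. The remaining 5, PLIN3, PLIN5, PNPLA2, HILPDA and PPARA, were not called in either direction. The median log2 fold change of the 9 was 0.28, with a range from -0.70 to 2.62. Since the members were chosen on these samples, nothing is read from these counts.

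**Figure D1:**
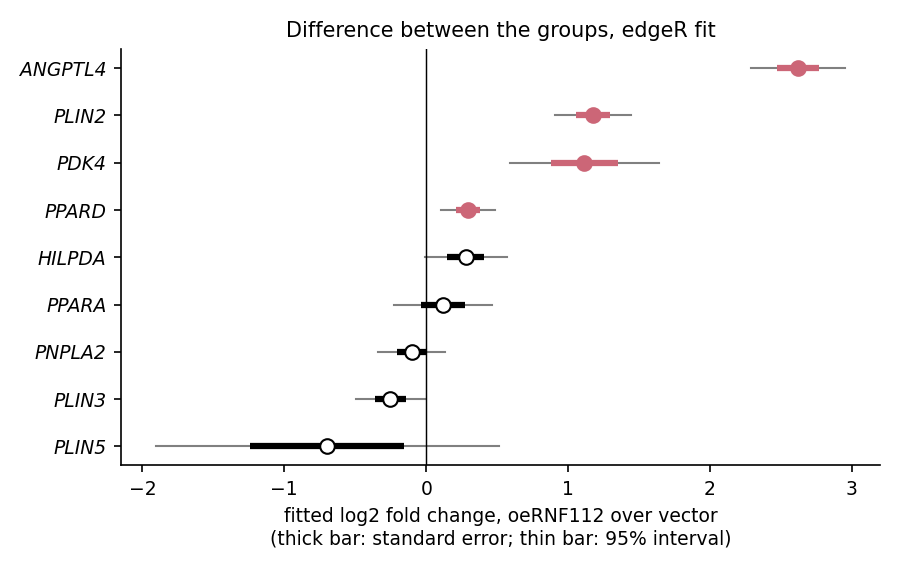
Fitted log2 fold change of each tested member, oeRNF112 over vector, with the standard error (SE) as a thick bar and the 95% interval as a thin bar; filled red points passed the adjusted p of 0.05. ANGPTL4 lies at 2.62, PLIN2 and PDK4 lie at 1.18 and 1.11, and PPARD at 0.29 has the shortest interval of the called genes.

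The make-up of the coat transcripts differed between the groups, with more PLIN2 beside a PLIN3 that was not called. PLIN2, also called adipophilin or ADRP, coats droplets in most cell types and is degraded when it has no droplet to bind. Its level was 22.7, 20.2 and 20.7 RPKM in the vector samples and 48.6, 59.0 and 45.7 RPKM in the oeRNF112 samples. Every oeRNF112 sample was above every vector sample, the lowest being 1.84 times the highest vector sample in CPM. The counts behind this were 1869 to 2137 in vector and 4203 to 5452 in oeRNF112. The fitted log2 fold change was 1.18 (standard error, SE, 0.119), or 2.26-fold, and 464 of the 14467 tested genes (3.21%) had a larger one.

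PLIN3, or TIP47, moves between the cytosol and young droplets. It stood at 88.5, 80.2 and 88.4 RPKM in vector and at 76.9, 85.5 and 68.0 RPKM in oeRNF112. The groups overlapped, with oeRNF112 replicate 2 inside the vector range and replicate 3 the lowest of all samples. The log2 fold change was -0.25 (SE 0.109, 95% interval -0.49 to -0.0090), not past the threshold.

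The share of PLIN2 in the summed RPKM of the 4 perilipins was 20.4%, 20.1% and 18.9% in vector and 38.7%, 40.8% and 40.1% in oeRNF112. That is a mean of 19.8% ± 0.790 against 39.9% ± 1.08 (SD, n = 3), with a gap between the groups far wider than the spread within either. PLIN3 made up nearly all of the rest, at 80.1% ± 0.790 and 60.0% ± 1.09. As a ratio of RPKM, PLIN2 over PLIN3 was 0.257, 0.252 and 0.234 in vector and 0.632, 0.690 and 0.671 in oeRNF112. This ratio is taken within a sample and does not depend on the scaling between samples. Its spread within oeRNF112, where replicate 2 was the highest and replicate 3 the lowest for both genes, was smaller in proportion than that of either gene alone.

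**Figure D2:**
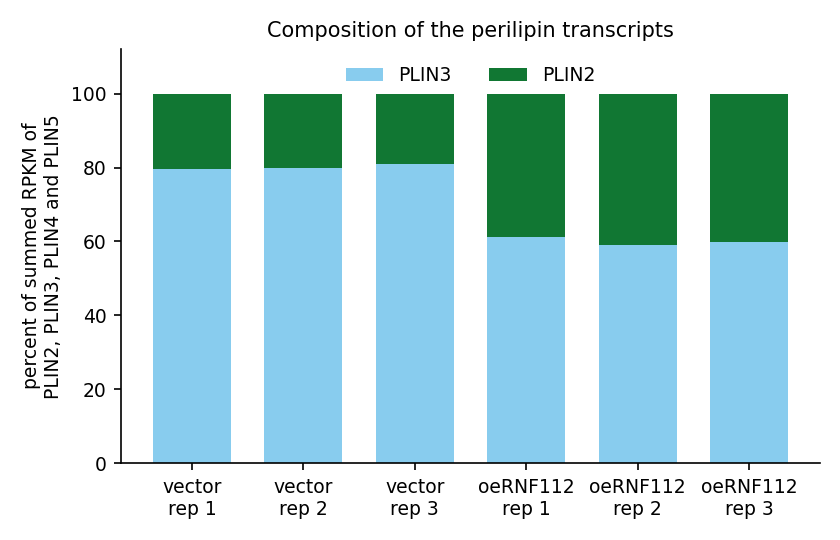
Stacked bars of the share, in percent, of PLIN3 (light blue, below) and PLIN2 (green, above) in the summed RPKM of PLIN2, PLIN3, PLIN4 and PLIN5 in each of the 6 samples; the other 2 perilipins are too low to be seen. The PLIN2 share is 18.9% to 20.4% in vector and 38.7% to 40.8% in oeRNF112.

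PLIN5, the coat of oxidative tissues such as heart and muscle, was close to the limit of detection. It had 15, 12 and 13 counts in vector and 4, 5 and 17 counts in oeRNF112. Replicates 1 and 2 of oeRNF112 were below every vector sample and replicate 3 was above all of them, so the log2 fold change of -0.70 had a SE of 0.542 and an interval from -1.91 to 0.51. PLIN4, mainly an adipocyte coat, had 0, 0 and 3 counts in vector and 1, 2 and 1 counts in oeRNF112, and a difference was not detectable at this depth. PLIN4 and PLIN5 are neighbours on chromosome 19, 4044 bases apart in GRCh38.p14. PLIN1, the coat of mature adipocytes, had at most 15 counts in any sample. Of the 8 adipocyte markers looked for, ADIPOQ and LEP were not among the genes compared, and the 6 found summed to 8.19 to 8.93 RPKM in vector and 9.79 to 10.0 RPKM in oeRNF112, most of it PPARG. Only 3 of the adipocyte markers could be tested, and 0 were called in either direction.

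Beyond the perilipins, 12 of 18 listed droplet proteins could be tested. Of these, 1 rose and 2 fell in the edgeR fit, with p adjusted after Benjamini and Hochberg, and their median log2 fold change was -0.15 beside 0.0027 for all genes. LDAF1, which works with seipin where droplets form, rose from 12.6 ± 0.248 to 21.4 ± 1.39 RPKM, a log2 fold change of 0.68 (SE 0.0935, adjusted p = 0.00152). FITM2, which helps droplets bud from the endoplasmic reticulum, fell by 0.38 on the log2 scale (SE 0.105, adjusted p = 0.0347), a call that was lost in each of the 6 fits that left out 1 sample. METTL7A, a methyltransferase found on droplets, had 53 to 73 counts in vector and fell to 13 to 34 counts in oeRNF112 (log2 fold change -1.56, adjusted p = 0.0169, called in 4 of those 6 fits).

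PNPLA2, the lipase itself, was not called. It had 27.9, 27.7 and 34.3 RPKM in vector and 30.3, 29.3 and 29.7 RPKM in oeRNF112. The oeRNF112 samples all fell inside the vector range, in which replicate 3 was the highest. The log2 fold change was -0.10 (SE 0.105), and the 95% interval of -0.34 to 0.13 bounds a difference that was not resolved. The ratio of PLIN2 to PNPLA2 in RPKM went from 0.815, 0.732 and 0.602 in vector to 1.60, 2.01 and 1.54 in oeRNF112, without overlap.

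HILPDA, a small droplet protein that inhibits PNPLA2, stood at 20.1, 20.0 and 18.7 RPKM in vector and 25.1, 29.6 and 21.2 RPKM in oeRNF112. In RPKM every oeRNF112 sample was above every vector sample, whereas after TMM scaling oeRNF112 replicate 3, at 27.6 CPM, lay below vector replicate 1 at 28.5 CPM. Its log2 fold change was 0.28 (SE 0.130, interval -0.010 to 0.57) and did not pass the threshold. The ratio of PNPLA2 to HILPDA overlapped between the groups, at 1.38 to 1.83 in vector and 0.990 to 1.40 in oeRNF112.

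Among 9 other genes of lipolysis, all tested, 1 rose and 0 fell, with a median log2 fold change of 0.15. That is 11.1% called, beside 18.1% of all tested genes. The riser was G0S2, the other inhibitor of PNPLA2, with 12334, 10444 and 13477 counts in vector and 24852, 29836 and 23494 counts in oeRNF112. Its groups were apart, and its log2 fold change was 1.03 (SE 0.132, adjusted p = 0.00108 by the edgeR test). At 339 ± 43.5 RPKM in vector and 738 ± 91.4 RPKM in oeRNF112 (SD, n = 3), G0S2 was above every member in both groups. ABHD5, the activator of PNPLA2, was not called, with a log2 fold change of 0.20 and an adjusted p of 0.140 from the same test. The ratio of PNPLA2 to ABHD5 in RPKM was 5.98, 5.52 and 5.72 in oeRNF112 and 6.82, 6.38 and 8.02 in vector. The groups did not overlap, by a narrow margin, and vector replicate 3 was the highest. Neither gene was called, so no difference is read from this ratio.

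Of the receptors, PPARD was the more abundant in every sample and PPARA the more variable. PPARD, the widely expressed receptor for fatty acids, had 6.86, 7.36 and 7.21 RPKM in vector and 8.96, 9.14 and 9.90 RPKM in oeRNF112. All oeRNF112 samples were higher, by a narrow margin, the lowest being 1.15 times the highest vector sample in CPM. The log2 fold change was 0.29 (SE 0.0852), a rise of 22.4%. This call was the least firm of the 4, since it was lost in each of the 6 fits without 1 sample, where the log2 fold change was still 0.26 to 0.32.

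PPARA, the main PPAR of liver and other tissues that burn fat, had 2.17, 2.67 and 1.78 RPKM in vector and 2.46, 2.16 and 3.07 RPKM in oeRNF112. The groups overlapped, and the log2 fold change of 0.12 (SE 0.155, interval -0.22 to 0.47) turned to -0.0023 without vector replicate 3 and to -0.014 without oeRNF112 replicate 3. The ratio of PPARD to PPARA overlapped between the groups as well.

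PPARG, the adipocyte receptor, is not a member and was counted with the partners of the PPARs. Its level was close to that of PPARD, at 7.51 ± 0.448 and 8.65 ± 0.0250 RPKM, with a log2 fold change of 0.11 and an adjusted p of 0.403 by the edgeR test. Of 19 such partners and coregulators, 18 were tested, 2 rose and 2 fell, and their median was -0.04. The 22.2% called lay near the 18.1% of all tested genes. The partner receptors RXRA and RXRB fell, with log2 fold changes of -0.35 and -0.44 (adjusted p = 0.0202 and 0.0211 by the edgeR test), while the coactivators PPARGC1A and PPARGC1B rose by 1.40 and 0.97 (adjusted p = 0.0231 and 0.0300). PPARGC1A was rare, at 21 to 57 counts in vector and 81 to 130 in oeRNF112. Each of these 4 calls held in 2 of the 6 fits without 1 sample.

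ANGPTL4, a secreted inhibitor of lipoprotein lipase that keeps circulating fat from being taken up, had the largest difference of the members. Its level was 4.96, 4.45 and 4.11 RPKM in vector and 30.6, 33.9 and 24.2 RPKM in oeRNF112. The groups were far apart, the lowest oeRNF112 sample being 4.46 times the highest vector sample in CPM, and the highest oeRNF112 sample 7.78 times the lowest. These rest on 324 to 400 counts in vector and 1908 to 2685 counts in oeRNF112. The fitted log2 fold change was 2.62 (SE 0.149), or 6.15-fold, and 38 of 14467 tested genes (0.263%) had a larger one. Without 1 sample it lay between 2.51 and 2.76 and was called in all 6 fits, as was PLIN2 at 1.06 to 1.26.

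The lipase that ANGPTL4 acts on was nearly silent in these cells: LPL had 0, 0 and 0 counts in vector and 16, 2 and 1 counts in oeRNF112, with replicate 1 holding most of them. Of 12 relatives of ANGPTL4 and genes that handle lipoprotein lipase, only 2 had enough counts to be tested. Both fell, with a median log2 fold change of -1.595. DESeq2, which kept 10 genes of the list at low counts, gave a median of 0.60, so no direction of the list is read from the 2. ANGPTL2, a secreted relative, had 179, 213 and 153 counts in vector and 85, 39 and 50 in oeRNF112 (log2 fold change -1.72, SE 0.270, adjusted p = 0.00279 by the edgeR test). LIPC, hepatic lipase, had 35 to 43 counts in vector and 7 to 21 in oeRNF112 (log2 fold change -1.47, adjusted p = 0.0267 from the same test). In the fits without 1 sample the call of ANGPTL2 held in all 6 and that of LIPC in 2. With 7 counts in oeRNF112 replicate 1, LIPC could not be tested under the filter of 10 counts in every sample.

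PDK4, a kinase that shuts the pyruvate dehydrogenase complex when fat is burned, was low but higher in oeRNF112. It had 57, 82 and 48 counts in vector and 134, 120 and 174 counts in oeRNF112, or 0.426 ± 0.122 and 0.983 ± 0.193 RPKM (SD, n = 3). The groups did not overlap, the lowest oeRNF112 sample being 1.42 times the highest vector sample in CPM. The log2 fold change was 1.11 (SE 0.235), or 2.16-fold, and at these counts its interval ran from 0.59 to 1.64. It was called in 5 of 6 fits without 1 sample, and not without vector replicate 1 (1.06).

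None of the 10 other genes of the pyruvate dehydrogenase complex, its kinases and phosphatases rose, and 2 fell, with a median log2 fold change of -0.05. The 20.0% called lay near the 18.1% of all tested genes. PDHB, a subunit of the complex, and the kinase PDK2 fell by 0.33 each on the log2 scale (adjusted p = 0.0421 and 0.0472 by the edgeR test), calls that held in 1 and 0 of the 6 fits without 1 sample. PDK1, a kinase induced by hypoxia, had a log2 fold change of 0.02 (SE 0.111, interval -0.22 to 0.27, adjusted p = 0.906 from the same test). In oeRNF112, PDK4 at 0.983 RPKM was still below PDK1 at 4.98 ± 0.221 and PDK2 at 4.78 ± 0.0597 RPKM.

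The other genes known as PPAR targets moved in both directions. Of 34 listed, 25 were tested, 2 rose and 3 fell, and their median log2 fold change was -0.16. The 20.0% called lay near the 18.1% of all tested genes. CPT1A, the gate of mitochondrial fatty acid oxidation, rose from 979, 1064 and 977 counts to 2769, 2715 and 3147 counts (log2 fold change 1.43, SE 0.0917, adjusted p = 2.24e-05 by the edgeR test). ACSL3, an acyl-CoA synthetase found on growing droplets, rose by 0.36 (adjusted p = 0.0270). The genes that fell were HADHB and ACOT2, which work in mitochondrial fatty acid metabolism, with log2 fold changes of -0.33 and -0.56 (adjusted p = 0.0308 and 0.0299), and CAT, or catalase, at -0.31 (adjusted p = 0.0427). In the fits without 1 sample CPT1A was called in all 6, ACSL3 and ACOT2 in 2, and HADHB and CAT in 1. ACOT2 is uncertain, because its near-identical neighbour ACOT1 can share its reads.

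Genes known from the other inputs to ANGPTL4, HILPDA and PDK4 were counted in the same way. Of 19 hypoxia targets, all tested, 3 rose, 0 fell and 16 were not called, with a median of 0.10. The 3 called were 15.8% of the list, beside 18.1% of all tested genes called and 9.97% called higher. They were NDRG1 (log2 fold change 1.62, adjusted p = 0.000623), ENO2 (0.75, adjusted p = 0.000684) and EGLN3 (1.55, adjusted p = 0.0393, on 10 to 65 counts), all by the edgeR test, and called in 6, 6 and 2 of the 6 fits without 1 sample. Of 8 glucocorticoid receptor targets, 7 were tested, 5 rose and 0 fell, with a median of 0.64. ERRFI1 and DUSP1, feedback inhibitors of growth factor signalling, rose by 0.88 and 0.82, the kinase SGK1 by 0.79 and TSC22D3, or GILZ, by 0.64 (adjusted p = 0.000664, 0.00135, 0.00206 and 0.00809 by the edgeR test). FKBP5, a chaperone that feeds back on the receptor, rose by 0.30 (adjusted p = 0.0473), a call lost in all 6 fits without 1 sample, in which the other 4 were kept. The 2 targets not called were PER1 (0.34, adjusted p = 0.0519) and KLF9 (-0.013, adjusted p = 0.957), both by the edgeR test. These lists were chosen with earlier results of these samples known, and no list was tested as a whole.

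Within the groups, the members fell into different orders of samples. ANGPTL4, PLIN2, PLIN3 and HILPDA were all highest in oeRNF112 replicate 2 and lowest in replicate 3, with deviations from the group mean in log2 CPM of 0.19 to 0.26 and of -0.29 to -0.17. PDK4 and PPARA went the other way in oeRNF112, highest in replicate 3 (0.24 and 0.25) and lowest in replicate 2 (-0.19 and -0.20), and in vector both were highest in replicate 2 and lowest in replicate 3. PPARD and PNPLA2 deviated the least in oeRNF112, within -0.06 and 0.06.

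Libraries also differed by gene length. Genes with an authors' length of 5000 bases or more had a median deviation of 0.12 in vector replicate 2, -0.10 in vector replicate 3, -0.09 in oeRNF112 replicate 2 and 0.09 in oeRNF112 replicate 3. In the same samples genes under 2000 bases had -0.14, 0.13, 0.13 and -0.12, and those in between had -0.03, 0.04, 0.02 and -0.03. PPARA (11291 bases) and PPARD (5522 bases) belong to the long genes, and PPARA had the order of that class in these 4 samples. HILPDA (1364 bases) and ANGPTL4 (1955 bases) belong to the short ones and had their order in oeRNF112 but not in vector, where both were lowest in replicate 3. PDK4 (3601 bases), PLIN2 (2280 bases) and PLIN3 (2232 bases) belong to the middle class. PDK4, at 0.31, -0.23, -0.19 and 0.24, ran opposite to that class but had the order of the long genes in these samples. Between the groups, the median log2 fold change was 0.07 for the 5424 long genes and -0.12 for the 2747 short ones, beside which ANGPTL4, a short gene, stood at 2.62. The part of library differences by length in the members' values was not tested.

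The genes with the pattern most like that of a member over the 6 samples were sought among 11564 genes with a mean count of at least 100, by the Euclidean distance of centred log2(CPM + 0.5). For PLIN2 they were CD68 (0.110), a lysosomal protein, IRF7 (0.166), an interferon regulator, and ISG20 (0.188), an interferon-induced exonuclease. CD68 had 987, 870 and 955 counts in vector and 2125, 2645 and 2103 in oeRNF112, with the same highest and lowest samples as PLIN2 in vector. For ANGPTL4 they were BCL2A1 (0.389), a survival factor, UCA1 (0.610), a long noncoding RNA, and MX2 (0.707), an antiviral GTPase, which were less close. For PDK4 they were PALM2AKAP2 (0.136), RASSF8 (0.137) and EPG5 (0.165); PDK4 had the fewest counts of these 4 genes. These distances describe likeness over 6 samples and nothing more.

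The members lie at chromosome 9, 19108388 to 19127492 (PLIN2), chromosome 19, 4838341 to 4867667 (PLIN3), 4502192 to 4518486 (PLIN4), 4522531 to 4535224 (PLIN5) and 8364155 to 8374370 (ANGPTL4), chromosome 7, 95583499 to 95596516 (PDK4) and 128455878 to 128458418 (HILPDA), chromosome 22, 46150526 to 46243756 (PPARA), chromosome 6, 35342558 to 35428178 (PPARD) and chromosome 11, 818914 to 825573 (PNPLA2), all protein-coding genes in GRCh38.p14. In GENCODE 29, exons of an antisense gene cover 17.8% of the exon bases of PLIN3 and 10.4% of those of PNPLA2. Further, another gene on the same strand covers 21.7% of PLIN5, and 2 noncoding transcripts on the same strand cover 8.99% and 8.45% of HILPDA. Whether counting used the strand is not given in the sources used here, so reads in these stretches cannot be assigned to one gene with certainty. For ANGPTL4 the shared stretch was 1 base, and no exon overlap was found for PLIN2, PDK4, PPARA or PPARD.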

How the data were processed

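RNA-seq of 6 T24 samples, 3 vector and 3 oeRNF112, was analysed. The authors deposited raw read counts per gene and, in a separate table, RPKM values. Per the submitters' processing notes, reads were processed with Trimmomatic 0.36 and featureCounts (Subread 1.5.1) and GRCh38 was the build. The aligner, the annotation and the strand setting are not given in the sources used here. The deposited RPKM equalled the count over the column total and 1 length for 23152 of 23152 genes (tolerance 0.001). No 2 samples of a group were copies of each other.

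The counts were fitted with edgeR 4.0.16 in R 4.3.3 (its filter on low counts by group, TMM factors of 0.957 to 1.05, quasi-likelihood test, Benjamini-Hochberg adjustment over all 14467 genes tested), and a gene was called at an adjusted p under 0.05. Intervals are 95% intervals of the fitted log2 fold change. Means are given with the SD over 3 samples. The scripts were tested on simulated data.

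The members and lists were chosen with earlier results of these data known, so members carry no p-value and no list was tested as a whole. From each list at most 4 called genes with the smallest p-values were named, and for ANGPTL4, PLIN2 and PDK4 the 3 genes most like them. ABHD5, PPARG, PDK1, PLIN1, LPL, CAT, FKBP5, PER1 and KLF9 are not covered by this rule, and were picked once their values were known. Alternatives were DESeq2 1.42.0, its size factors, library totals, other filters, limma 3.58.1 on log2(RPKM + 1) or log2(RPKM + 0.1), a replicate block and each sample left out in turn. Promoter sequences and coordinates came from RefSeq and exon overlaps from GENCODE 29. Metabolomics and proteomics were not analysed here.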

Additional observations from a re-analysis of the deposited data

How the results depend on the processing

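The count of 4 called members was the same under 6 of the 14 alternatives. It was 3 without a filter on low counts and 3 with a replicate block, and 2 to 3 when 1 sample was left out, the lowest being without vector replicate 1. ANGPTL4 and PLIN2 were called under all 14, PDK4 under 13 and PPARD under 6. Among uncalled genes, the sign was followed for the tested members and for ABHD5, PPARG and PDK1, but not for PER1 or KLF9. Of those followed, 3 changed sign when 1 sample was left out. The log2 fold change of PPARA was -0.014 to 0.26, below 0 without vector replicate 3 or oeRNF112 replicate 3. That of PNPLA2 was -0.17 to 0.016, above 0 without vector replicate 3. That of PDK1 was -0.083 to 0.087, below 0 without vector replicate 3 or oeRNF112 replicate 2.

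Over all genes 2620 calls became 1061 to 3387 when 1 sample was left out, the lowest without vector replicate 1 and the highest without vector replicate 2. Leaving out 1 sample gave 1 to 2 calls among other droplet proteins, 0 to 4 among PPAR partners, 1 to 7 among other PPAR targets, 1 to 2 in the angiopoietin-like list and 0 to 1 in the pyruvate dehydrogenase list. With library totals the lipolysis list had 3 calls and the pyruvate dehydrogenase list 0. The directions among other PPAR targets also shifted, from 2 higher and 3 lower to 3 higher and 1 lower with library totals. Under either limma pseudocount they were 4 higher and 1 lower. With limma the lipolysis list had 2 under either pseudocount, the pyruvate dehydrogenase list 0 under either, and with log2(RPKM + 1) the PPAR partners had 2 and the angiopoietin-like list 1. Under the filter of 10 counts in every sample the angiopoietin-like and pyruvate dehydrogenase lists had 1 each, and without a filter the latter had 0. The cause of these shifts was not tested.

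Samples were treated as unpaired, because the labels name no shared batch or day behind the replicate numbers. Deviations of same-numbered samples correlated at -0.12, -0.36 and -0.30. Library differences by gene length ran opposite ways in same-numbered replicates 2 and 3, so these correlations cannot decide whether samples were paired. With the replicate block 876 genes were called, with 0 calls among PPAR partners, 1 among other PPAR targets, 1 in the angiopoietin-like list and 0 in the pyruvate dehydrogenase list, and PPARD was no longer called (0.29). Depth limits PLIN4 and PLIN5, whose counts cannot resolve even large differences.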
